A study of Mus musculus with 11 samples.

Results

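The glycosyltransferases that build mucin-type O-glycans and the outer ends of glycan chains were examined in RNA of full-thickness distal colon from mice lacking Nrg4, the gene of neuregulin-4, a growth factor that binds ErbB4. Members were chosen by gene symbol alone: the numbered Galnt, Gcnt, B3gnt, B4galnt, B3galt, B3galnt, B4galt, Fut, St6gal, St6galnac and St8sia genes, together with C1galt1 and its chaperone C1galt1c1. The St3gal genes were left out. This gave 75 of the 22242 genes in the table. The choice by symbol also takes in enzymes that act mainly on other glycans, such as Fut8, which adds the core fucose of N-glycans, and B4galt7, which acts on the linker of glycosaminoglycans.

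The animals were 5 mice homozygous for the Nrg4 knockout (KO) and 6 wild-type (WT) mice. Both genotypes were housed together in mixed cages from 9 weeks of age, and tissue was taken at 11 to 12 weeks. Cage A held KO-1, KO-8, WT-5 and WT-7, cage B held KO-4, KO-9, WT-2 and WT-11, and cage C held KO-3, WT-6 and WT-10. The labels name no cell type to which the knockout is restricted, and whether the mice were litter-mates is not stated. Both sexes were used but no mouse is labelled with its sex.

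Mucin-type O-glycosylation starts in the Golgi, where a polypeptide N-acetylgalactosaminyltransferase of the Galnt family links N-acetylgalactosamine to serine or threonine. C1galt1 extends this sugar with galactose to core 1, which Gcnt1 or Gcnt3 can branch to core 2, while B3gnt6 makes core 3 from the same starting sugar. B3gnt, B4galt and B3galt enzymes lengthen the chain, and fucosyltransferases and sialyltransferases cap it. In the colon these chains make up much of the mass of the secreted mucin Muc2, the main component of the mucus gel.

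The promoters of the most abundant member, B3gnt7, and of Gcnt1 are shown because results below turn on these genes. Gcnt1 was the only member called lower in cage A, and that call did not hold in every fit. The sequences are from RefSeq (GRCm38.p6), run from 250 bases before to 50 bases after an annotated start in the direction of transcription, and carry CpG dinucleotides in capitals. B3gnt7 lies at chr1:86302971-86303270 on the plus strand. RefSeq gives 3 Gcnt1 promoters, all on the minus strand, and the 2 at the listed transcripts are printed, at chr19:17356618-17356917 for the start of transcript ENSMUST00000174236 and at chr19:17339456-17339755, 63 bases from the start of transcript ENSMUST00000169897.
B3gnt7: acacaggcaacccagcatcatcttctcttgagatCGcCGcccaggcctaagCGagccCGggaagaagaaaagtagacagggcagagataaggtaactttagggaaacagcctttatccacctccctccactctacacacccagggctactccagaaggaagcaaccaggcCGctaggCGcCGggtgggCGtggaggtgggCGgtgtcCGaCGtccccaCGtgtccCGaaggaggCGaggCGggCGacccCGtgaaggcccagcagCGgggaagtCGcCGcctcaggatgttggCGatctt
Gcnt1 at the start of ENSMUST00000174236: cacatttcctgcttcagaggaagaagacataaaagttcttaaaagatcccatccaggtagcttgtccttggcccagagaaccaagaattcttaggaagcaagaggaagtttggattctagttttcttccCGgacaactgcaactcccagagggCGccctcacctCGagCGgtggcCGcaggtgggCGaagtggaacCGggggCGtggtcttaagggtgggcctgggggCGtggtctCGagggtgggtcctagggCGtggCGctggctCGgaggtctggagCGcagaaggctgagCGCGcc
Gcnt1 near the start of ENSMUST00000169897: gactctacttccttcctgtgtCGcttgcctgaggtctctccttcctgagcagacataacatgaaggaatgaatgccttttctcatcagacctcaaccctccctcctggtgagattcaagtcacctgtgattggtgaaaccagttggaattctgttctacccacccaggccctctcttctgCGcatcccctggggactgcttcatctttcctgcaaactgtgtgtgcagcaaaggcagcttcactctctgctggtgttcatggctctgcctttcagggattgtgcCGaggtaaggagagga
The B3gnt7 promoter held 21 CpG, the first Gcnt1 promoter printed 16 and the second 3. The third Gcnt1 promoter, at chr19:17372795-17373094 and 16177 bases from the nearest start of a listed transcript, held 2 CpG. The table of promoters matched 55 of the 75 members, with 74 promoters. Their median was 18.5 CpG, and the median over all 32851 promoters was 7. The letters GGGCGG, the GC box, stood on either strand in 54.1% of member promoters and 35.7% of all promoters. TATAAA stood in 2.70% of member promoters and 13.6% of all, and CCAAT in 29.7% of member promoters and 37.4% of all. These are counts of letters in a window and were not tested.

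Values are TPM, a transcript level scaled for transcript length and library total, summed over the listed transcripts of a gene. Over the whole table TPM summed to between 558446 and 770986 per mouse; it lists principal transcripts only. Mitochondrially encoded genes took 19.0% to 42.9% of it in KO mice and 19.1% to 31.4% in WT mice. All 10 epithelial markers reached 1 TPM in every mouse, while the pancreatic markers Prss1, Cpa1 and Pnlip were listed at 0 throughout. The other pancreatic marker, Cela1, stood between 341 and 482 TPM in KO mice and between 382 and 554 TPM in WT mice. Of 7 squamous markers only Sprr2a2 reached 1 TPM in every mouse, and the list summed to 18422 to 20753 TPM in KO mice and 16392 to 24247 TPM in WT mice, with Krtdap at 0. Nrg4 was listed at 0 in every mouse of both genotypes, so its level could not check the labels. The Y-linked gene Eif2s3y stood between 21.5 and 31.8 TPM in the 4 mice of cage A and at no more than 0.0523 TPM in the other 7, so sex and cage A cannot be told apart. In bulk tissue, fewer cells of a type and less RNA per cell cannot be told apart.

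The distal colon expressed members at every step of the chain. Between 46 and 48 members reached 1 TPM in a KO mouse and between 45 and 48 in a WT mouse. Summed over all 75 members, the level was 1375 ± 108 TPM in KO mice (SD, n = 5) and 1392 ± 125 TPM in WT mice (SD, n = 6). B3gnt7 and St6galnac6 together made up 45.4% of that sum. In total 48 members reached 1 TPM in at least 5 mice and were tested: 11 of 19 Galnt genes, 5 of 8 genes for cores and branches, 22 of 26 for extension and 10 of 22 for the ends of chains. These roles were set by gene family, apart from B3gnt6, which was placed with the cores. Fut8 is therefore counted among chain ends and B4galt7 among extension genes, although both act mainly on other glycans. The 27 members not tested averaged below 1 TPM over all mice, led by Galnt16 with 0.929 ± 0.257 TPM in KO mice and 0.933 ± 0.389 TPM in WT mice.

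**Figure D1:**
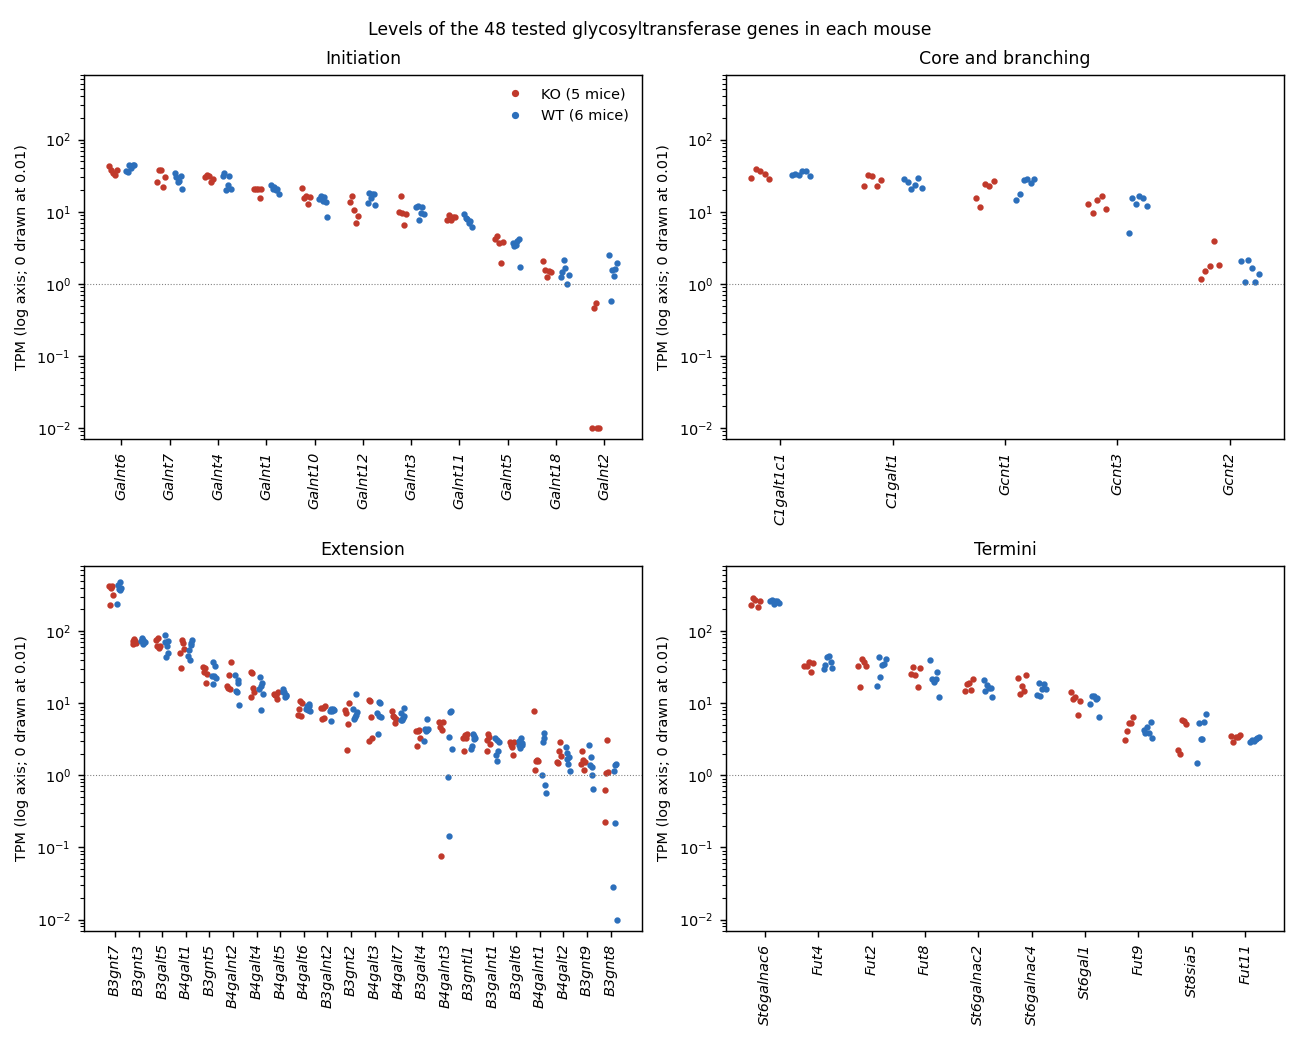
Level of each tested member in TPM on a log axis, 1 point per mouse, with KO mice in red left of WT mice in blue, members grouped by role, a dotted line at 1 TPM and values of 0 drawn at the bottom of the axis. B3gnt7 and St6galnac6 stand above all other members, and KO and WT points intermingle for all tested members but Galnt2.

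Among the enzymes that start the chain, Galnt6, Galnt7 and Galnt4 were the most abundant. Galnt6 stood at 43.3, 37.7, 34.2, 31.8 and 38.5 TPM in KO mice (KO-1, KO-8, KO-4, KO-9 and KO-3, the order used throughout), against a range of 35.3 to 45.0 and a median of 42.6 TPM in WT mice. Galnt7 averaged 30.8 ± 7.04 TPM in KO mice and 28.3 ± 4.83 TPM in WT mice. Galnt4, which also acts on partly glycosylated peptides, averaged 29.5 ± 2.64 TPM in KO mice and 26.7 ± 6.11 TPM in WT mice. The genotypes overlapped in all 3 genes. Galnt1, Galnt10, Galnt3 and Galnt11 lay between 6.21 and 23.7 TPM in every mouse, and Galntl5 was listed at 0 in all mice.

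For the cores, C1galt1, the core 1 synthase, averaged 27.3 ± 4.76 TPM in KO mice and 24.7 ± 3.71 TPM in WT mice. C1galt1c1, the chaperone that C1galt1 needs to fold, stood at 29.8, 38.8, 36.5, 33.4 and 28.8 TPM in KO mice, against 31.3 to 36.7 TPM with a median of 32.8 in WT mice. The core 3 synthase B3gnt6 was far lower, with 0.539, 0.410, 0.592, 0.336 and 0.464 TPM in KO mice, against 0.145 to 0.380 TPM with a median of 0.322 in WT mice. The groups overlapped, and B3gnt6 did not reach the level at which genes were tested. Its listed transcript is its only protein-coding one in GENCODE M21. Gcnt3, which makes core 2 and core 4 branches, had 13.0, 9.59, 14.7, 16.3 and 10.8 TPM in KO mice, against 5.03 to 16.7 TPM with a median of 14.0 in WT mice. Gcnt2, which makes branches of poly-N-acetyllactosamine, averaged 2.05 ± 1.10 TPM in KO mice and 1.56 ± 0.479 TPM in WT mice.

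Extension was led by B3gnt7, an N-acetylglucosaminyltransferase of sulfated lactosamine chains, with 427, 231, 401, 419 and 320 TPM in KO mice, against 236 to 481 TPM with a median of 388 in WT mice. The lowest values were those of KO-8 and WT-5 in cage A, while the other 2 mice of cage A, KO-1 and WT-7, had 427 and 431 TPM, among the highest. B3gnt3, which extends core 1, varied least of all tested members, with a coefficient of variation of 5.94% over the 11 mice: 66.9, 72.0, 76.9, 73.8 and 68.1 TPM in KO mice, against 66.5 to 79.9 TPM in WT mice. B3galt5, which makes type 1 chains, had 75.8, 62.5, 81.3, 57.6 and 62.7 TPM in KO mice, against 43.1 to 87.8 TPM with a median of 66.3 in WT mice. B4galnt2, the enzyme of the Sda antigen, averaged 22.3 ± 9.20 TPM in KO mice and 17.3 ± 5.50 TPM in WT mice, with the highest value of 37.6 TPM in KO-3. B3gnt5, which starts lacto-series glycolipids, lay between 18.2 and 37.9 TPM over all mice, averaging 26.8 ± 5.04 TPM in KO mice and 26.6 ± 7.41 TPM in WT mice.

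At the ends of chains, the sialyltransferase St6galnac6 stood at 233, 286, 274, 217 and 263 TPM in KO mice, against 239 to 273 TPM with a median of 260 in WT mice. Fut2, which makes the H antigen, had 33.0, 16.8, 41.0, 37.0 and 33.1 TPM in KO mice, against 17.1 to 44.1 TPM with a median of 34.6 in WT mice. As for B3gnt7, KO-8 and WT-5 held the lowest values, an arrangement picked out after the values were seen. The summed level of 10 goblet cell markers was 12418 TPM in KO-8, the highest of all mice, and 5768 TPM in WT-5, the lowest of the WT mice, and its part in these values was not tested. Fut8 was instead highest in these 2 mice, with 32.1 TPM in KO-8 and 40.3 TPM in WT-5, and it averaged 26.0 ± 5.93 TPM in KO mice and 23.8 ± 9.35 TPM in WT mice. Fut4 averaged 33.3 ± 3.88 TPM in KO mice and 36.8 ± 6.68 TPM in WT mice, and St6gal1, which caps lactosamine ends, 11.1 ± 2.74 TPM in KO mice and 10.8 ± 2.38 TPM in WT mice. St6galnac1, the sialyl-Tn enzyme, averaged 0.207 ± 0.215 TPM in KO mice and 0.179 ± 0.0683 TPM in WT mice.

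The first comparison asked whether members differed between KO and WT colon. With limma on log2(TPM + 0.5) and cage as a term, 0 of 48 tested members passed a false discovery rate (FDR) of 0.05, against a background of 0.0372% of the 10755 genes tested. At an unadjusted p below 0.05, 2 of 48 members passed, Galnt2 and Galnt12, or 4.17% of members, and the background was 3.10%. Both were lower in KO mice, where the background was 2.04%, and 0 members were higher, where it was 1.06%. Galnt2 entered the test through its WT mice alone, and with an overlapping gene model added to it, as described below, the count was 1 of 48. The authors' deposited table also gave no member transcript a q-value below 0.05 among 77 tested, where the background was 0.0339% of 14763 transcripts. There 3 transcripts, of Galnt2, Galnt12 and Galnt1, had an unadjusted p below 0.05, or 3.90%, and the background was 2.24%. Fold changes were positive for 29 members and negative for 19, with a median log2 fold change of 0.06 for members and -0.01 over all genes tested. The balance turned when 1 mouse was left out: it was 22 positive and 26 negative without KO-4, 22 and 25 without WT-5 and 23 and 24 without WT-2.

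The intervals show, member by member, how large a difference the comparison could have missed. They are not adjusted for the number of members and do not cover the members not tested. The pseudocount also understates the differences of low members. The 95% interval of the KO to WT difference lay within 2-fold in either direction for 42 of 48 members and within 1.5-fold for 30. The 6 members whose interval reached 2-fold were B3gnt8, B4galnt1, B4galnt2, B4galnt3, B4galt3 and Galnt2. For the abundant enzymes the differences were small: the log2 fold change was -0.02 ± 0.09 (SE) for St6galnac6, -0.03 ± 0.07 for B3gnt3, -0.03 ± 0.10 for C1galt1c1 and -0.10 ± 0.19 for B3gnt7. By role, the median log2 fold change was 0.06 for the 11 Galnt genes, 0.07 for the 5 core and branching genes, 0.03 for the 22 extension genes and 0.10 for the 10 genes of chain ends.

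**Figure D2:**
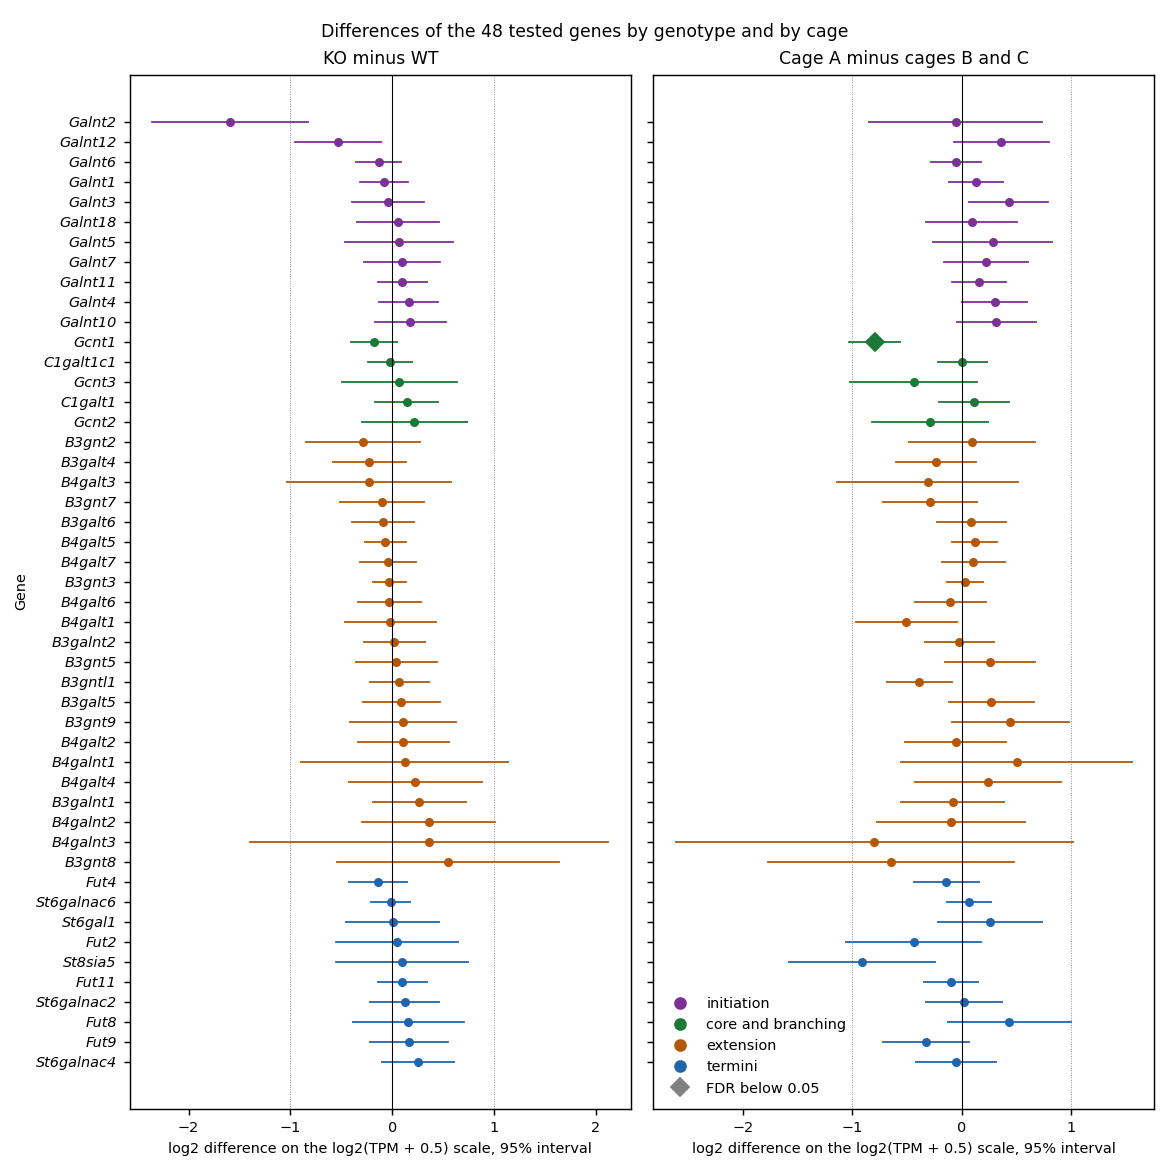
Log2 difference of KO minus WT mice (left) and of cage A minus cages B and C (right) for each tested member, coloured by role, with its 95% interval from limma on log2(TPM + 0.5). In the left panel the intervals of all tested members but Galnt2 and Galnt12 cross 0 and no member passed an FDR of 0.05; in the right panel Gcnt1, drawn as a diamond, did.

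Galnt2, a broadly acting initiating enzyme (chr8:124231391-124345724, plus strand, mm10), had the smallest p of the members. It was listed at 0, 0.464, 0.536, 0 and 0 TPM in KO mice, against 2.49 and 0.573 TPM in WT-5 and WT-7, 1.56 and 1.29 TPM in WT-2 and WT-11, and 1.60 and 1.97 TPM in WT-6 and WT-10. It passed the filter on low values through its WT mice only, so that a lower level in KO mice was favoured by the filter. Every KO mouse lay below every WT mouse, where the background was 0.112% of genes tested, and nothing is read from that share. The log2 fold change was -1.59 ± 0.34 and did not pass (limma, FDR 0.880); it was -2.96 with a pseudocount of 0.1.

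Galnt2 overlaps another gene model in the table. Of its 75-base stretches, the read length, 93.6% also occur in Gm20388, a gene model that spans chr8:119910841-124345722 on the same strand, and the stretch not shared is the first 331 bases of its 4113-base transcript. Gm20388 averaged 10.4 ± 1.60 TPM in KO mice and 8.92 ± 1.38 TPM in WT mice. With both models added, an alternative chosen after seeing the data, the level was 10.6 ± 1.59 TPM in KO mice and 10.5 ± 1.66 TPM in WT mice, and the log2 fold change was -0.01 ± 0.11 (limma, FDR 1.00).

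**Figure D3:**
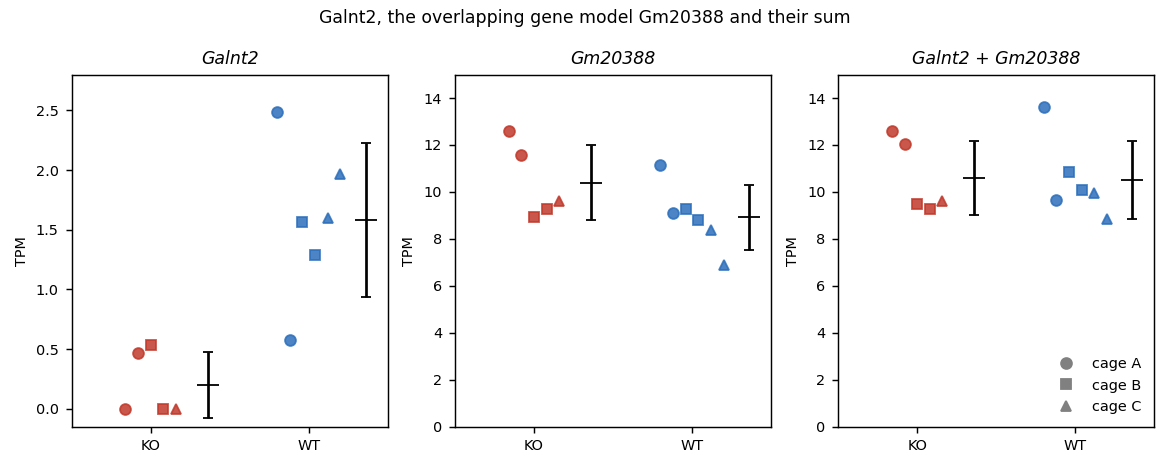
TPM of Galnt2, of the overlapping gene model Gm20388 and of their sum in each mouse, KO left of WT, with the mean and SD as bars, the cage as the shape of a point, and a separate axis for Galnt2. Galnt2 alone was lower in all KO mice, and the summed level was 10.6 TPM in KO mice and 10.5 TPM in WT mice.

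Galnt12, another initiating enzyme expressed in the digestive tract, stood at 13.6, 16.5, 10.6, 6.92 and 8.86 TPM in KO mice, against 12.4 to 18.2 TPM with a median of 16.4 in WT mice. The groups overlapped, and the log2 fold change was -0.53 ± 0.19 (limma, unadjusted p = 0.0177, FDR 1.00). Cage by cage, KO minus WT came to -0.05 in cage A, while cage B gave -0.91 and cage C -0.70 on the log2 scale. Of the 75-base stretches of its listed transcript, 87.1% also occur in transcripts of the gene that the table does not list.

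The remaining members with the smallest p between genotypes showed no call. St6galnac4 averaged 18.5 ± 4.68 TPM in KO mice and 15.8 ± 2.75 TPM in WT mice. B3galt4, an enzyme of gangliosides, averaged 3.66 ± 0.737 TPM in KO mice and 4.35 ± 0.939 TPM in WT mice, and B3galnt1, the globoside synthase, 3.04 ± 0.589 TPM in KO mice and 2.48 ± 0.683 TPM in WT mice. The 2 members on chromosome 9, where Nrg4 lies, are Gcnt3, 14.7 Mb away, and Fut4, a fucosyltransferase of the Lewis x structure, 40.5 Mb away. Their log2 fold changes were 0.07 ± 0.25 for Gcnt3 and -0.14 ± 0.13 for Fut4.

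Genes that supply and receive these sugars were examined beside the members. In the KO against WT test 0 genes passed an FDR of 0.05 in limma in any of 6 lists: 14 tested genes for nucleotide sugar supply, 11 nucleotide sugar transporters, 10 mucins and other acceptors, 6 glycan sulfotransferases, 11 genes of N-glycan branching and 12 other transferases. At an unadjusted p below 0.05, 2 of these 64 genes were higher in KO mice and 0 lower; the 3.12% in both directions was close to the 3.10% over all genes tested. Emcn, an endothelial sialomucin, averaged 2.51 ± 0.438 TPM in KO mice and 1.28 ± 0.430 TPM in WT mice (log2 fold change 0.73 ± 0.17, limma FDR 1.00). The summed level of 6 endothelial markers, of which Emcn is one, ranged from 6.52 to 12.0 TPM in KO mice and from 3.06 to 9.67 TPM in WT mice; its part in this value was not tested. Poglut1, which adds glucose to Notch receptors, averaged 9.26 ± 1.40 TPM in KO mice and 7.41 ± 1.20 TPM in WT mice (log2 fold change 0.30 ± 0.12, limma FDR 1.00). Muc2 stood at 171 ± 46.0 TPM in KO mice and 168 ± 28.7 TPM in WT mice.

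The next comparison was between cages. In an F test over the 3 cages 0 of 48 members passed an FDR of 0.05 (limma), where the background was 0% of genes tested, and 5 of 48, or 10.4%, had an unadjusted p below 0.05 against a background of 12.1%. Cage A was then set against cages B and C, a contrast chosen with earlier results known. Here 1 of 48 members passed, Gcnt1, against a background of 0.0465% of genes tested. At an unadjusted p below 0.05, 6 of 48 passed, or 12.5%, against a background of 17.4%: 2 of 48, Galnt3 and Galnt4, had higher values in cage A (background 9.83%), and 4 of 48, Gcnt1, St8sia5, B3gntl1 and B4galt1, had lower ones (background 7.61%). With overlapping gene models added to Galnt2 and to B3gnt2, an alternative chosen after seeing the data, 8 of 48 passed. Of these, 3 had higher and 5 lower values in cage A, and the background was again 17.4%.

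Gcnt1, the core 2 branching enzyme (chr19:17326141-17372844, minus strand, mm10), stood at 15.6, 11.8, 14.3 and 17.8 TPM in KO-1, KO-8, WT-5 and WT-7 of cage A. It stood at 24.6, 22.9, 27.7 and 28.7 TPM in KO-4, KO-9, WT-2 and WT-11 of cage B, and at 26.6, 25.0 and 28.2 TPM in KO-3, WT-6 and WT-10 of cage C. All 4 mice of cage A lay below all 7 others, which held for 1.66% of genes tested; 0 members lay wholly above, where the background was 2.38%. Sex cannot be told apart from cage A, as given above for Eif2s3y. Other values also differed between cages in their means, with ranges that overlapped. Mitochondrial genes took 19.0% to 24.7% of the summed TPM in cage A, against 23.0% to 29.8% for cage B and 22.3% to 42.9% for cage C. The 7 immune markers summed to 63.4 to 187 TPM in cage A, against 30.9 to 164 TPM in cages B and C. The 6 fibroblast markers summed to 84.0 to 152 TPM in cage A, against 78.4 to 136 TPM in cages B and C, and the 6 markers of enteric neurons and glia averaged 10.6 ± 2.06 TPM in sum in cage A, against 16.1 ± 4.24 TPM for cage B and 13.6 ± 1.98 TPM for cage C (SD). None of these markers was at 0 in all mice, and their part in the Gcnt1 result was not tested. The log2 difference was -0.80 ± 0.10 (limma, FDR 0.0396). That FDR rests on the spread of mice within cages, as cage A has no replicate. The FDR rose above 0.05 under 4 alternatives, to 0.0531 with a pseudocount of 0.1, 0.0575 without a filter, 0.0856 after rescaling without mitochondrial genes and 0.0742 without a variance trend. Leaving out 1 mouse at a time, the call held in 2 of 11 fits, without KO-1 and without WT-7, with the difference between -0.87 and -0.72. Between genotypes Gcnt1 averaged 20.3 ± 6.33 TPM in KO mice and 23.6 ± 6.07 TPM in WT mice, with a log2 fold change of -0.18 ± 0.10.

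The level of Gcnt1 was split unevenly over its 2 listed transcripts, whose promoters are shown above. ENSMUST00000169897 held 3.23% of the gene's TPM in KO-1 and 67.2% in WT-10, the ends of the range. Within cage A alone its share was 3.23% in KO-1, 51.3% in KO-8, 6.19% in WT-5 and 57.7% in WT-7. Of the 75-base stretches of each transcript, 97.8% for ENSMUST00000169897 and 97.6% for ENSMUST00000174236 occur in the other. The values of the 2 transcripts therefore differ through the few stretches that are not shared between them. Transcripts of the gene that are not listed also hold 41.9% of the stretches of ENSMUST00000169897 and 44.2% of those of ENSMUST00000174236.

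**Figure D4:**
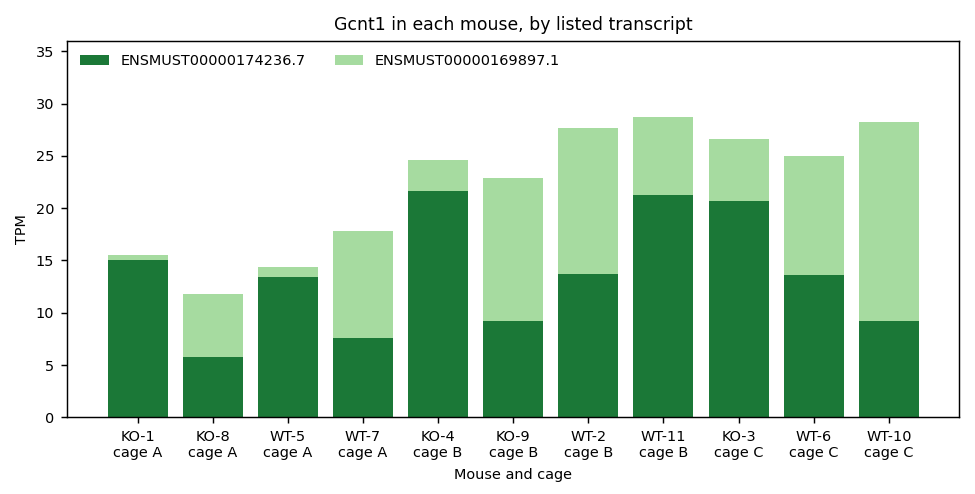
TPM of Gcnt1 in each mouse, ordered by cage, as stacked bars of its 2 listed transcripts whose full height is the level of the gene. The full height lies between 11.8 and 17.8 TPM in cage A and between 22.9 and 28.7 TPM in cages B and C, while the split between transcripts varies within each cage.

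The other members of this contrast did not pass the FDR. St8sia5, a sialyltransferase of gangliosides, averaged 2.73 ± 1.71 TPM in cage A, against 4.47 ± 1.51 TPM for cage B and 5.92 ± 0.955 TPM for cage C (log2 difference -0.91 ± 0.30, limma FDR 0.193). B4galt1, the main galactosyltransferase of lactosamine chains, averaged 45.3 ± 10.3 TPM in cage A, against 62.1 ± 15.8 TPM for cage B and 67.0 ± 9.89 TPM for cage C (log2 difference -0.51 ± 0.21, limma FDR 0.252). Galnt3 averaged 12.5 ± 2.77 TPM in cage A, against 8.37 ± 1.60 TPM for cage B and 9.96 ± 1.29 TPM for cage C (log2 difference 0.43 ± 0.16, limma FDR 0.236). Of the 11 tested Galnt genes 9 had a positive difference, with a median of 0.22. The median over all genes tested was 0.03, with 53.6% of them positive. Galnt2, counted here as negative with -0.06, came to 0.28 with its overlapping gene model added. The balance of signs within a role was not tested. The medians of the other roles were negative, at -0.29 for core and branching genes (2 of 5 positive), -0.04 for extension (10 of 22) and -0.08 for chain ends (4 of 10).

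B3gnt2, which makes poly-N-acetyllactosamine, was the 1 member of 48 with an unadjusted p below 0.05 between cages C and B, where 4.09% of genes tested were; 0 of 48 passed the FDR in limma, against a background of 0%. It averaged 10.3 ± 2.97 TPM in cage C, with a range of 7.44 to 13.4, and 5.18 ± 2.10 TPM in cage B, with a range of 2.25 to 6.89. Between 79.7% and 89.4% of its 75-base stretches occur in the overlapping model Gm28048 (chr11:22834744-22982090, minus strand). The log2 difference was 0.94 ± 0.32 for B3gnt2 alone (limma, unadjusted p = 0.0136). With both models added, it was 0.37 ± 0.13 (limma, unadjusted p = 0.0169, FDR 1.00). The summed level was 50.3 ± 8.74 TPM in cage C and 38.1 ± 2.69 TPM in cage B. With the models kept apart, 1 mouse was left out at a time. Between cages C and B, 0 members then had an unadjusted p below 0.05 in limma without KO-3 or without WT-6. In each other fit 1 or 2 members did.

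Whether the genotype difference depended on cage was tested last. In limma 0 of 48 members passed an FDR of 0.05 for the interaction, against a background of 0.0186%, and 1 of 48, B4galnt3, had an unadjusted p below 0.05 against 3.97%. B4galnt3, which makes N,N-diacetyllactosediamine, had 5.57, 4.66, 0.0759, 4.20 and 5.49 TPM in KO mice, against 0.145 to 7.85 TPM with a median of 2.87 in WT mice. The low values were those of KO-4, WT-7 and WT-5, so both genotypes held high and low mice. On the log2 scale KO minus WT came to 2.53 in cage A, while cage B gave -1.77 and cage C, with its 1 KO mouse, 0.31. All 75-base stretches of its listed transcript also occur in a transcript of the gene that the table does not list. Across the 48 tested members the coefficient of variation over all mice had a median of 22.6% and reached 95.1% in B3gnt8, and 19 members varied by less than 2-fold between the lowest and the highest mouse.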

How the data were processed

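Polyadenylated RNA of distal colon from 5 KO and 6 WT mice was read as single-end 75 nt stranded libraries, per the labels' protocols. The submitters' processing notes name CASAVA, kallisto and sleuth with mm10, without versions. The deposited values are TPM per APPRIS principal transcript, per the file headers, beside the authors' p-value and q-value per transcript. The authors also deposited a log2 ratio, a mean natural log of the estimated count and a likelihood-ratio score per transcript, not used for any result. TPM keeps no depth, so read numbers per mouse are unknown and counting intervals are left out. Of 29213 rows, 405 repeated another and were dropped. TPM was summed per gene, members by symbol, which joined the 2 gene identifiers of St6galnac2.

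Genes that reached 1 TPM in 5 or more mice were tested with limma 3.58.1 (R 4.3.3) on log2(TPM + 0.5), with a mean-variance trend, terms for cage and for genotype, and adjustment by Benjamini and Hochberg over all 10755 genes at an FDR of 0.05. The pseudocount understates changes of low genes. Log2 fold changes carry the standard error, and mean TPM the SD. P-values measure the spread between these mice that the cage and genotype terms leave. In the cage tests the mice are not replicates of a cage or of a sex, so those p-values hold no spread between cages. The procedure was tested on simulated data. There 64% of 2-fold and 92% of 4-fold differences between KO and WT were recovered, and 7.69% of calls were false. Of simulated 8-fold differences in the KO mice of cage B, the interaction test recovered 65%. Coordinates and shared 75-base stretches are from GENCODE M21 (mm10). Alternatives were other pseudocounts, filters and scalings, no trend, no cage term, without cage A and leaving out each mouse. Members and lists were chosen with earlier results of these data known. Named members are those with the smallest p in each test, the most abundant 3 of each role and those on chromosome 9; others were chosen after their values were seen.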

Additional observations from a re-analysis of the deposited data

Results flagged for a closer look

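For the 26 members named by p, abundance or chromosome, 52 groups of KO or WT mice were examined for a mouse far from the rest. Of these groups 3, or 5.77%, held one, where chance gives about 1 in 20. Members given with values for other reasons, such as B3gnt6 and Fut8, were not examined. B3gnt2 was highest in WT-6, with 13.4 TPM, well above the other WT mice. Gcnt2 was highest in KO-9, with 3.96 TPM, while the other KO mice lay between 1.16 and 1.84 TPM. B4galnt3 was lowest in KO-4, with 0.0759 TPM, while the other KO mice lay between 4.20 and 5.57 TPM.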

How the results depend on the processing

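No member passed the FDR in the KO against WT, cage F, cage C against cage B or interaction test under any alternative run. The count for cage A against cages B and C was 0 with a pseudocount of 0.1, without a filter, after rescaling without mitochondrial genes and without a trend, and 0 to 1 leaving out each mouse. Of 34 single-member log2 values 19 kept their direction throughout and 15 reversed in some fit, none of them a call. KO against WT reversals were St8sia5 at -0.0080 with no cage term; B4galt1 at 0.0064, C1galt1c1 at 0.00047 and St6galnac6 at 0.0097 after rescaling without mitochondrial genes; and, without cage A, B4galt1 at 0.16, B4galnt3 at -0.94, B3gnt3 at 0.032, St6galnac6 at 0.0017 and Gcnt3 at -0.071. For cage A against cages B and C, B3gnt2 was at -0.33 with overlapping gene models summed, against 0.09. Leaving out each mouse, the KO against WT ranges that crossed 0 were -0.060 to 0.38 for St8sia5, -0.16 to 0.045 for Galnt3, -0.0071 to 0.14 for B3gntl1, -0.20 to 0.12 for B4galt1, -0.12 to 1.10 for B4galnt3, -0.0050 to 0.54 for B4galnt2, -0.092 to 0.043 for C1galt1c1, -0.24 to 0.014 for B3gnt7, -0.073 to 0.0046 for B3gnt3, -0.032 to 0.17 for B3galt5, -0.021 to 0.19 for Galnt7, -0.061 to 0.035 for St6galnac6, -0.11 to 0.28 for Fut2, -0.19 to 0.26 for Gcnt3, and for cage A against cages B and C -0.082 to 0.26 for B3gnt2. Galnt2 passed the filter in 6 of the 11 such fits, with -1.83 to -1.39 and an FDR of 0.196 to 1.00; over the other alternatives it lay between -2.96, with a pseudocount of 0.1, and -0.01, with overlapping gene models summed.

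Over all genes tested, the KO against WT test called 4 genes, 2 without a filter, 1 without cage A and 2 to 4 leaving out each mouse. Cage A against cages B and C called 5, with 2 at a pseudocount of 0.1, 9 at a pseudocount of 1, 1 after rescaling without mitochondrial genes, 3 without a trend and 0 to 8 leaving out each mouse. The cage F test called 0, with 4 without a filter and 0 to 2 leaving out each mouse, and cage C against cage B 0, with 1 at a pseudocount of 0.1. The interaction test called 2, with 12 at a pseudocount of 0.1, 49 without a filter, 1 with a filter of 5 TPM and 0 to 5 leaving out each mouse. No paired analysis was possible because the mouse numbers of KO and WT mice share none; cage, which both genotypes share, was a term of all fits but the one without it, where 0 members were called. The depth of the libraries is unknown, which limits what can be said of members under 1 TPM.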
